A study of Homo sapiens with 4 samples.

Results

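A set of 5 short transcripts took most of the TPM in RNA sequencing of imatinib-resistant K562 cells, and they are described here library by library. They were chosen by identifier for their high TPM, and are 5 of the 78631 transcripts listed: uc021rsp.1 and uc021rst.1 of 301 nt, uc021rlx.1 of 299 nt, uc003zxh.2 of 268 nt and uc001vxa.1 of 341 nt. TPM is the number of reads divided by the effective length of the transcript and scaled to a sum of 1000000 per library. K562, labelled here as erythroid cells, is a line from human chronic myeloid leukaemia with the BCR-ABL1 fusion kinase, which imatinib inhibits. All 4 libraries came from K562 cells labelled as imatinib treated and imatinib resistant, 2 of them labelled PLAG1 VC and 2 labelled PLAG1 KD. PLAG1 encodes a zinc finger transcription factor. The labels do not spell out VC or KD, and they do not say how PLAG1 was targeted, whether the cells were a clone or whether libraries of the same group were grown as separate cultures. The spread between them, against which every difference between VC and KD is judged, may therefore be technical only.

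The names proposed for these transcripts belong to structural RNAs made by RNA polymerase III. The 7SL RNA, encoded by RN7SL1 and RN7SL2, is the scaffold of the signal recognition particle, which brings ribosomes that make secreted and membrane proteins to the endoplasmic reticulum. RMRP is the RNA of RNase MRP, an enzyme that acts on the precursor of ribosomal RNA. RPPH1 is the catalytic RNA of RNase P, which trims the leader off transfer RNA precursors.

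The files pair none of the 5 identifiers with a gene name, so length was the only check of these names. The 341 nt of uc001vxa.1 equal the RefSeq length of RPPH1, while its GENCODE 29 transcript has 333 nt. The 268 nt of uc003zxh.2 equal the longer GENCODE transcript of RMRP, and RefSeq gives RMRP 270 nt. None of the 7SL genes looked up has the 301 nt of uc021rsp.1 and uc021rst.1: RN7SL1 and RN7SL3 have 299 nt and RN7SL2 has 300 nt. Further 7SL records were not looked up. The 299 nt of uc021rlx.1 equal the lengths of RN7SL1 and RN7SL3, but its identity is not settled and it is given no name here. Length alone is a weak label, since GENCODE 29 holds 64 transcripts of 268 nt, 83 of 341 nt, 88 of 301 nt and 109 of 299 nt. The names are therefore candidates, and the transcripts are called by identifier. Without gene names, PLAG1 itself, erythroid markers, the proteins of these particles and the RNA polymerase III subunits were not analysed here.

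The reference sequence of RMRP is shown because uc003zxh.2 equals it in length and had the largest fitted change of the 5. It was read from the GENCODE 29 transcripts (GRCh38) and runs 5′ to 3′, all in lower case.
RMRP: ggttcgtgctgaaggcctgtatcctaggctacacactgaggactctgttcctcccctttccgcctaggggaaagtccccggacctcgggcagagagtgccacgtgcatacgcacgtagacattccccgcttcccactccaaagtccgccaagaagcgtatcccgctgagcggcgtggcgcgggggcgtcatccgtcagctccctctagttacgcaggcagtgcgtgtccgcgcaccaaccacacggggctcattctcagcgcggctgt

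Cut into words of 31 bases and compared in the same orientation only, RMRP shared no word with a GENCODE transcript of another gene. All 303 words of RPPH1 lay in AL355075.4 as well, in the same orientation, and RPPH1 shared no word with any further gene. Whether the transcripts the authors used for counting held that one is not known.

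The deposited read numbers set 2 of the 5 transcripts apart from the other 3. Salmon, the tool named in the submitters' processing notes, splits a read that matches several transcripts, so a transcript with reads of its own alone has a whole number of reads. uc003zxh.2 and uc001vxa.1 had whole numbers (to within 0.0005) in all 4 libraries. The remaining 3 had fractional numbers in every library. Among transcripts of 200 to under 500 nt with at least 100 reads, whole numbers were found for 40% of 130 in VC 1, 42.3% of 130 in VC 2, 43.2% of 118 in KD 1 and 42.2% of 128 in KD 2. The summed reads of the 301-nt transcripts were not whole either, at 1340993.895 in VC 1, 1389730.636 in VC 2, 998084.058 in KD 1 and 1508857.793 in KD 2. Adding uc021rlx.1 gave 1504674.892, 1527950.558, 1073245.799 and 1690570.980 reads in the same order, so some of their reads were also divided with transcripts outside these 3.

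By TPM the 5 transcripts were the 5 highest of the table in every library. These levels chose them and are a description. uc021rsp.1 had a TPM of 239590 in VC 1, 226633 in VC 2, 227772 in KD 1 and 238620 in KD 2. uc021rst.1 had 237292, 223370, 237575 and 228978 in the same order. The first of the pair was the higher in VC 1, VC 2 and KD 2, the second in KD 1. uc021rlx.1 ranked 3 by mean TPM, at 59180 in VC 1, 45453 in VC 2, 35587 in KD 1 and 57192 in KD 2. uc003zxh.2 had 47328, 50753, 31650 and 36534, and uc001vxa.1 had 30232, 38696, 34466 and 28043. The ranges of these last 3 overlapped. The lowest of the 5, uc001vxa.1, had a mean TPM of 32859, against 4756 for the next transcript, uc021wgv.1 of 180 nt, a ratio of 6.91. No other transcript passed a TPM of 6415 in any library. The other 9 transcripts listed at 301 nt had at most 9.23 reads in a library, and those listed at 299, 268 and 341 nt at most 4.

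**Figure D1:**
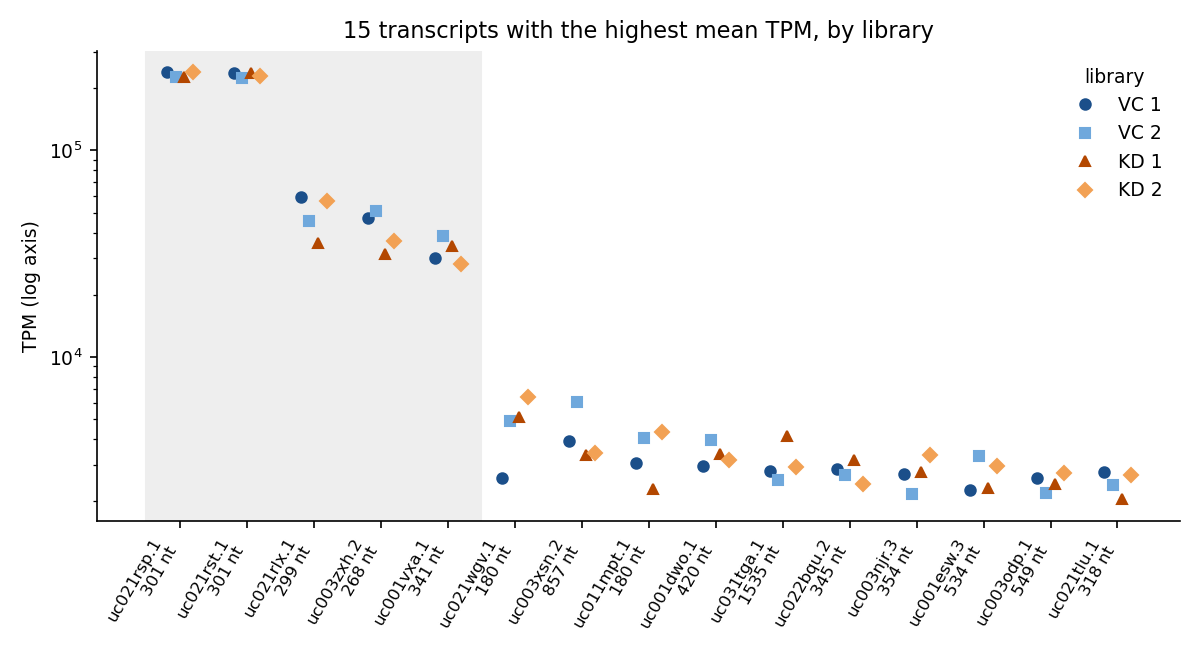
TPM on a log axis of the 15 transcripts with the highest mean TPM, with 1 point per library (VC 1, VC 2, KD 1, KD 2) and the length under each identifier. The 5 transcripts on the grey ground lie between 28043 and 239590, and no other point passes 6415.

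How large a part of the RNA these transcripts make up depends on the scale. By reads they held 9.63% of VC 1, 8.75% of VC 2, 7.43% of KD 1 and 9.49% of KD 2. By TPM they held 61.4%, 58.5%, 56.7% and 58.9% in the same order. The effective length, the number of positions from which a fragment can start, was 67.1 to 132 nt for them, or 25% to 38.8% of their length. The ratio of length to effective length was 2.58 to 3.99 for them, against a median of 1.10 for transcripts of 2000 to under 4000 nt. With reads divided by the full length they held 41.5% of VC 1, 39.4% of VC 2, 35.6% of KD 1 and 40.8% of KD 2. On all 3 scales KD 1 had the lowest share and VC 1 the highest. Of the reads on all 1833 listed transcripts of 200 to under 500 nt, the 5 held between 83.6% and 85.1% per library.

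The scale also set the order of uc003zxh.2 and uc001vxa.1. By reads uc001vxa.1 was the higher in 4 of 4 libraries. By TPM uc003zxh.2 was the higher in 3 of 4, all but KD 1. With reads divided by the full length, uc001vxa.1 was again the higher in 3 of 4, all but VC 1. Which of these RNAs was the more abundant per molecule can thus not be read from the libraries without the effective length.

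**Figure D2:**
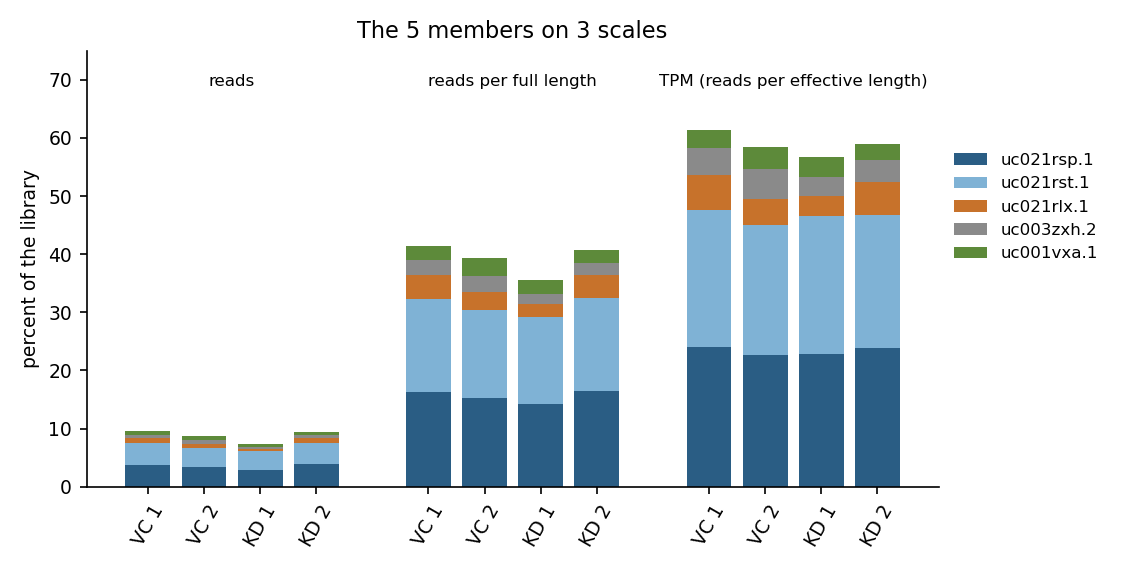
Percent of each library held by the 5 transcripts, stacked, by reads, by reads divided by the full length (scaled to a total of 100%) and by TPM, for VC 1, VC 2, KD 1 and KD 2. The stacks reach 7.43% to 9.63% by reads and 56.7% to 61.4% by TPM, and both 301-nt transcripts together fill most of each stack.

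The 301-nt transcripts were the 2 most read of the whole table in VC 1, VC 2 and KD 2, and ranked 2 and 3 in KD 1. uc021rsp.1 took 3.78% of the reads in VC 1, 3.40% in VC 2, 2.97% in KD 1 and 3.85% in KD 2. uc021rst.1 took 3.74%, 3.35%, 3.10% and 3.69%. KD 1 was the lowest and KD 2 near VC 1, so the groups overlapped for both. Summed, the pair came to 7.13% ± 0.55 of all reads for VC against 6.81% ± 1.05 for KD (± SD of 2 libraries each; exact two-sided permutation p = 1). By TPM the pair came to 46.3% ± 1.90 for VC against 46.6% ± 0.159 for KD (± SD, n = 2 each), and its highest library exceeded the lowest 1.06-fold, against 1.24-fold by reads. These ranges are not like measures, since the pair held 45.0% to 47.7% of TPM but 6.07% to 7.55% of reads. A large share of a fixed total has less room to vary in fold terms. KD 1 had the fewest reads on the pair and also the shortest effective length for it, 88.5 nt against 96.5 nt in VC 1, 97.9 nt in VC 2 and 101 nt in KD 2. A part of the shorter effective length in the lower read share of KD 1 was not tested.

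Within the pair the split of reads was close to even. The ratio of uc021rsp.1 to uc021rst.1 was 1.01 in VC 1, 1.01 in VC 2, 0.959 in KD 1 and 1.04 in KD 2. The VC libraries lay between the KD libraries. Since reads that match both are divided by estimation, the ratio rests on the reads that tell them apart and on that estimate.

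uc021rlx.1 varied the most of the 5. It took 0.918% of the reads in VC 1, 0.671% in VC 2, 0.457% in KD 1 and 0.909% in KD 2, a 2.01-fold range. VC 1 and KD 2 were high and nearly equal, VC 2 and KD 1 were lower, and the groups overlapped (VC 0.794% ± 0.175, KD 0.683% ± 0.319, ± SD of 2 libraries; p = 0.667 by the exact permutation test). Relative to the summed reads of the 301-nt pair it stood at 12.2% in VC 1, 9.95% in VC 2, 7.53% in KD 1 and 12.0% in KD 2. It thus did not keep a fixed proportion to the pair, with a 1.62-fold range. This was not particular to it, as that range was 1.65-fold for uc003zxh.2 and 1.43-fold for uc001vxa.1.

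uc003zxh.2, the candidate RMRP, took 0.550% of the reads in VC 1, 0.574% in VC 2, 0.313% in KD 1 and 0.443% in KD 2. Both KD libraries were below both VC libraries, by reads and by TPM. The VC mean was 0.562% ± 0.0167 and the KD mean 0.378% ± 0.0917 (± SD of 2 libraries; p = 0.333 by the exact permutation test, which cannot go lower with 2 against 2). By reads the KD libraries differed from each other by more than KD 2 differed from VC 1, and by TPM they differed by less. In bulk RNA a lower level in every cell and fewer cells with the RNA cannot be told apart. By TPM the VC mean was 4.90% ± 0.242 and the KD mean 3.41% ± 0.345 (± SD of 2 libraries). The effective length of uc003zxh.2 was 71.2 nt in VC 1, 73.9 nt in VC 2, 67.1 nt in KD 1 and 75.7 nt in KD 2. Its part in these shares was not tested.

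uc001vxa.1, the candidate RPPH1, took 0.640% of the reads in VC 1, 0.759% in VC 2, 0.592% in KD 1 and 0.594% in KD 2. The KD libraries lay together below both VC libraries, the nearer of which was VC 1. The VC mean was 0.700% ± 0.0844 and the KD mean 0.593% ± 0.00144 (± SD of 2 libraries; p = 0.333 by the exact permutation test). By TPM the groups overlapped, with VC at 3.45% ± 0.598 and KD at 3.13% ± 0.454 (± SD of 2 libraries). The separation by reads was therefore not seen by TPM. It was not seen with reads divided by the full length either (VC 1 2.43%, VC 2 3.02%, KD 1 2.51%, KD 2 2.25%). The effective length of this transcript was 130 nt in VC 1, 128 nt in VC 2, 116 nt in KD 1 and 132 nt in KD 2. Its part in these shares was not tested.

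**Figure D3:**
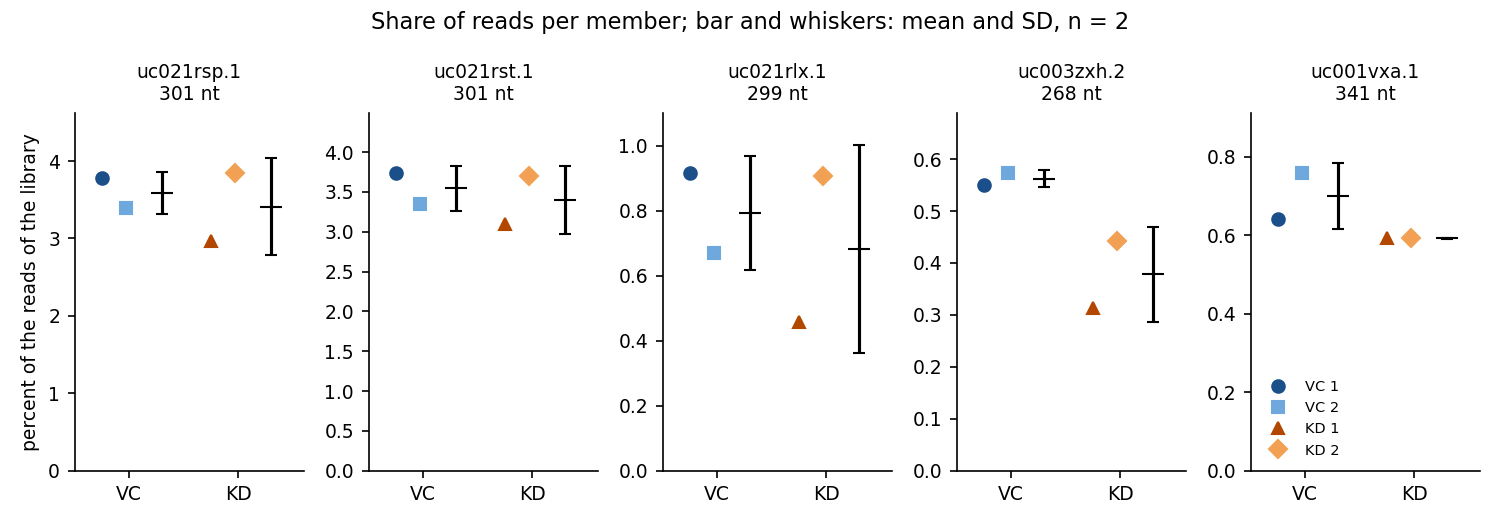
Percent of the reads of each library on each of the 5 transcripts, 1 point per library, with the mean and SD of VC and KD (n = 2 each) as black marks; each panel has its own axis from 0. The KD points lie below the VC points for uc003zxh.2 and uc001vxa.1 and straddle or overlap them for the other 3.

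The 95% Wilson interval of a share was at most 0.00885 percentage points to either side, and that of the smallest, uc003zxh.2 in KD 1, ran from 0.310% to 0.316%. These intervals cover counting error only, since reads without molecular identifiers are not independent molecules and divided reads are estimates. The coefficient of variation between the libraries of a group was 2.97% to 46.8% except for uc001vxa.1 in KD, where it was 0.244%, and the part that counting gives was 0.121% to 0.392%. Total reads ran from 16450627 to 20613436 per library. The labels give no batch. Over all tested transcripts VC 1 and VC 2 lay farthest apart, with a median absolute difference of 0.54 in log2 CPM, and VC 2 and KD 2 nearest, with 0.44.

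The comparison named in the series title is KD against VC, and none of the 5 transcripts passed the test. edgeR's quasi-likelihood test on 35776 transcripts called 0 of 5 at an adjusted p below 0.05, where it called 0 of all transcripts tested (0%). At an unadjusted p below 0.05 it had 0 of 5 against 3.91% of all tested. DESeq2 called 345 transcripts (0.964%) and limma-voom 0 (0%), none of the 5 among them. At an unadjusted p below 0.05 DESeq2 had 1 of the 5, uc003zxh.2, against 4.34% of all tested. At the same threshold limma-voom had 2, uc003zxh.2 and uc001vxa.1, against 2.65% of all tested. The fitted log2 fold changes of all 5 were below 0, with a median of -0.23, against -0.01 for all tested. They do not count as 5 separate observations, because the transcripts share their libraries and 3 of them had divided reads.

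The values below are CPM, reads scaled to a common library size with TMM factors. uc003zxh.2 had 5565 CPM in VC 1, 5794 in VC 2, 3120 in KD 1 and 4434 in KD 2, with both KD libraries the lower. Its edgeR log2 fold change was -0.59 (adjusted p = 1.00). limma-voom gave it -0.60 (SE 0.163) with a 95% interval of -1.01 to -0.20, which is not adjusted for the number of transcripts tested. uc001vxa.1 had 6473 CPM in VC 1, 7666 in VC 2, 5893 in KD 1 and 5944 in KD 2, again with both KD libraries the lower. Its edgeR log2 fold change was -0.26 (adjusted p = 1.00), and the limma-voom estimate was -0.25 (SE 0.102) with a 95% interval of -0.51 to -0.0014. KD and VC did not overlap in CPM for these 2 of the 5, against 31% of all tested transcripts and 29% of the 3858 whose mean was 50 CPM or more. For both the KD libraries were the lower, which held for 15.6% of all tested and 12.6% of those with at least 50 CPM.

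The other 3 overlapped between the groups. uc021rsp.1 had 38201 and 34272 CPM in VC and 29583 and 38552 in KD, replicates 1 and 2 in turn, with KD 2 the highest and KD 1 the lowest. uc021rst.1 had 37835 and 33779 CPM in VC and 30856 and 36995 in KD. uc021rlx.1 had 9281 and 6768 CPM in VC and 4551 and 9098 in KD. In all 3 KD 1 was the lowest library, as it also was for uc003zxh.2 and uc001vxa.1. Their edgeR log2 fold changes were -0.09, -0.08 and -0.23 (adjusted p = 1.00 for each). The limma-voom 95% interval ran from -0.42 to 0.23 for uc021rsp.1 and from -0.34 to 0.18 for uc021rst.1, so it held no 2-fold change in either direction. That of uc021rlx.1 ran from -1.08 to 0.53.

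These values moved when a library was left out. Without KD 1 the edgeR log2 fold change of uc003zxh.2 was -0.34 and without KD 2 it was -0.86, and it was below 0 whichever of the 4 libraries was left out. That of uc001vxa.1 was also below 0 each time, from -0.37 without VC 1 to -0.13 without VC 2. For both transcripts this follows from the CPM values, where both KD libraries lay below both VC libraries. Leaving out a library could hardly change the sign, so it is no further evidence of a difference. The 301-nt transcripts and uc021rlx.1 changed direction without KD 1, to 0.11 for uc021rsp.1, 0.06 for uc021rst.1 and 0.20 for uc021rlx.1. Without VC 1, uc021rst.1 and uc021rlx.1 also changed direction, to 0.01 and 0.02.

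**Figure D4:**
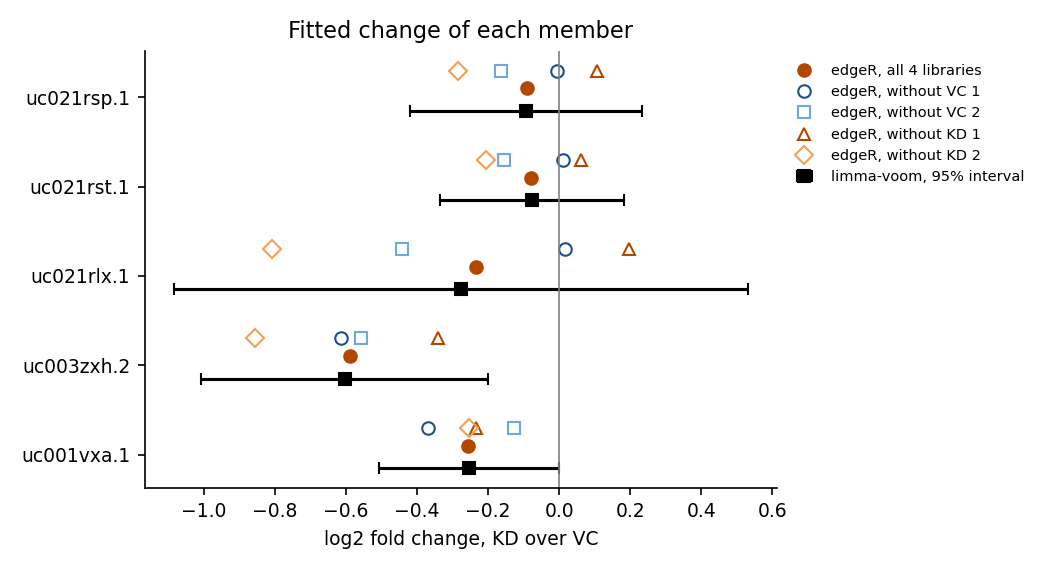
Log2 fold change of KD over VC for each of the 5 transcripts. Black squares and bars are limma-voom estimates with 95% intervals, filled circles edgeR with 4 libraries and open symbols edgeR without the library named. The points of uc003zxh.2 and uc001vxa.1 all lie below 0, and those of the other 3 lie on both sides.

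Ratios between the transcripts do not depend on how libraries are scaled. All 10 pairs were compared between KD and VC, and the groups did not overlap for 3 of them. Among all pairs of transcripts with means of 50 CPM or more, 29.3% had ratios that did not overlap between the groups, so 3 of 10 is near that background. The 3 were uc003zxh.2 against uc021rsp.1, uc021rst.1 and uc001vxa.1. uc003zxh.2 stood at 7.32% of the summed reads of the 301-nt pair in VC 1, 8.51% in VC 2, 5.16% in KD 1 and 5.87% in KD 2. Both KD libraries were below both VC libraries, with a VC mean of 7.92% ± 0.845 and a KD mean of 5.52% ± 0.50 (± SD of 2 libraries; p = 0.333 by the exact permutation test). Relative to uc001vxa.1 the reads of uc003zxh.2 were 0.86 in VC 1, 0.756 in VC 2, 0.529 in KD 1 and 0.746 in KD 2. KD 2 and VC 2 were nearly equal in that ratio, and KD 1 was apart. The adjusted p over the 10 pairs was at least 0.952 (exact permutation, Benjamini-Hochberg), and with 2 libraries against 2 this permutation test cannot give an unadjusted p below 0.333.

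uc001vxa.1 stood at 8.51% of the reads of the pair in VC 1, 11.3% in VC 2, 9.75% in KD 1 and 7.87% in KD 2. This placed VC 2 and KD 1 above VC 1 and KD 2, while for uc021rlx.1 VC 1 and KD 2 stood above VC 2 and KD 1. The ratio of uc021rlx.1 to uc001vxa.1 was 1.43 in VC 1, 0.883 in VC 2, 0.772 in KD 1 and 1.53 in KD 2. It had the widest range of the 10, 0.99 on the log2 scale, and it lay within the groups, not between them (KD minus VC -0.05; exact permutation p = 1).

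**Figure D5:**
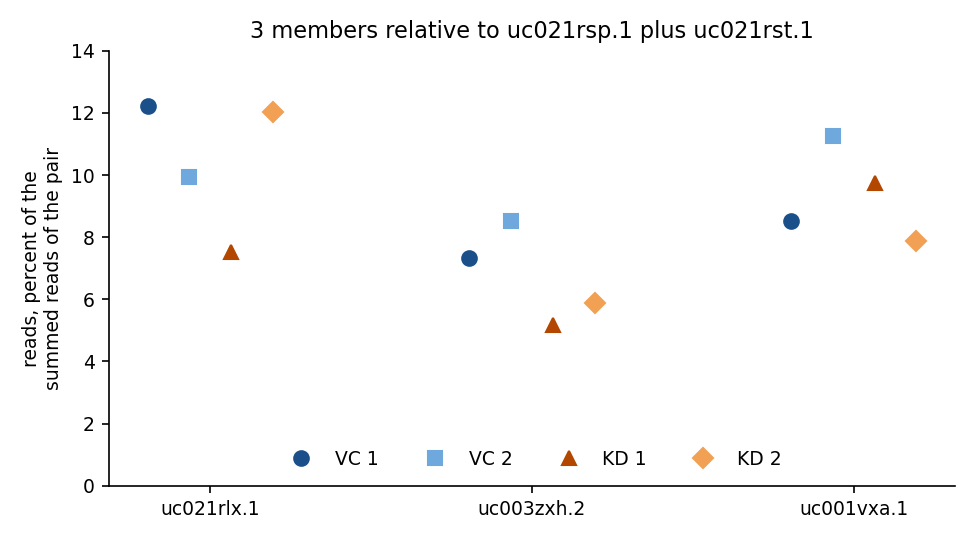
Reads of 3 of the transcripts as a percentage of the summed reads of uc021rsp.1 and uc021rst.1, with 1 point per library. For uc003zxh.2 the KD points (5.16% and 5.87%) lie below the VC points (7.32% and 8.51%), while for the other 2 the groups overlap.

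The 5 transcripts did not share 1 pattern over the 4 libraries. Likeness was measured as the distance between log2 CPM values centred on their mean over the libraries, among the 3858 transcripts whose mean was 50 CPM or more. The nearest pair among the 5 were the 301-nt transcripts, at a distance of 0.087. Of 3857 transcripts, uc021rst.1 ranked 17 by nearness to uc021rsp.1, and uc021rsp.1 ranked 44 by nearness to uc021rst.1. The farthest were uc021rlx.1 and uc001vxa.1, at 0.857. The transcript nearest to uc021rsp.1 was uc002bld.3 (8191 nt, 0.034), that nearest to uc021rst.1 was uc001bty.2 (3939 nt, 0.032) and that nearest to uc021rlx.1 was uc002tvu.3 (9243 nt, 0.043). uc001suc.3 (2163 nt, 0.081) lay nearest to uc003zxh.2, and uc003kze.3 (2643 nt, 0.064) nearest to uc001vxa.1. All 5 of these neighbours were over 2000 nt long, but how many of the 3858 were that long was not counted. With 4 libraries such distances are a description of these libraries only, and the files give no gene names for these neighbours.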

How the data were processed

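RNA was sequenced from 4 libraries, with group and replicate number read from each sample's title. Per the submitters' processing notes the authors used Salmon 0.8.1 and genome build hg19, while its index and options are not stated there. The deposited read numbers are estimated counts per transcript, not whole where a read was divided among transcripts. In the deposited TPM values the authors divided these counts by the effective length and scaled each library to 1000000. The transcripts and lists described here were chosen with earlier results of these data known.

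Estimated counts were rounded. Transcripts were kept with the edgeR 4.0.16 default filter (minimum count 10, minimum total 15), which left 35776. The test of KD against VC was edgeR's quasi-likelihood test with TMM factors (R 4.3.3), two-sided, Benjamini-Hochberg adjusted over all 35776, threshold 0.05. Intervals came from limma-voom (limma 3.58.1). DESeq2 1.42.0, limma on log2(TPM + 1), other scalings and filters, a replicate block and leaving out each library were alternatives, and a block with crossed numbers was added after seeing the data. Shares and ratios used exact two-sided permutation tests. The test was tried on simulated data with less spread between libraries than was fitted here, so that trial does not show how it performs on these libraries. The named transcripts are the chosen 5, for each the nearest other transcript in pattern (log2 CPM with a prior count of 2, mean of at least 50 CPM), and the next by mean TPM. Reference sequences came from GENCODE 29 and lengths also from RefSeq (GRCh38.p14); 0 of the 5 identifiers matched a RefSeq synonym. No coordinates are given, since the builds differ. The sequences of the 7SL copies are not reported here.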

Additional observations from a re-analysis of the deposited data

How the results depend on the processing

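The count of 0 transcripts past the threshold held under 16 of 17 alternatives; DESeq2 called 345. None of the 5 short transcripts passed under any of the 17. The log2 fold changes of uc003zxh.2 (-0.61 to -0.53, and -0.86 to -0.34 with a library left out) and uc001vxa.1 (-0.26 to -0.14, and -0.37 to -0.13) kept their direction throughout. With a library left out they could hardly do otherwise, since for both transcripts both KD libraries lay below both VC libraries in CPM. On log2(TPM + 1) and log2(TPM + 0.1) uc021rsp.1 had 0.00069 and uc021rst.1 0.019 under both, the reverse of the main direction. With a library left out, where the single library left is taken to vary as the other group does, uc021rsp.1 ranged from -0.28 to 0.11, uc021rst.1 from -0.21 to 0.063 and uc021rlx.1 from -0.81 to 0.20. The share of reads held by the 5 (log2 of KD over VC -0.12) ranged from -0.31 to 0.047 over all its alternatives. That of TPM (-0.05) ranged from -0.09 to -0.02 with a library left out, and was -0.13 relative to the TPM of all other transcripts and -0.13 relative to transcripts of at least 500 nt. Of the 10 ratios, 4 kept their direction. These include the 3 whose groups did not overlap, which leaving out a library could not reverse. The other 6 changed it with a library left out: uc021rsp.1 over uc021rst.1 ranged from -0.078 to 0.042, uc021rsp.1 over uc021rlx.1 from -0.11 to 0.51, uc021rsp.1 over uc001vxa.1 from -0.049 to 0.35, uc021rst.1 over uc021rlx.1 from -0.15 to 0.59, uc021rst.1 over uc001vxa.1 from -0.034 to 0.37 and uc021rlx.1 over uc001vxa.1 from -0.54 to 0.44. The cause was not tested.

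With the replicate number as a block, edgeR called 0 transcripts and uc003zxh.2 had a log2 fold change of -0.61 (adjusted p = 1.00); transcripts at an unadjusted p below 0.05 went from 1399 to 730, with 1 residual degree of freedom. No label ties equal numbers to a shared origin, and deviations of equally numbered libraries correlated at -0.01 over all tested transcripts and at -0.13 over the 3858 with a mean of 50 CPM or more, which include the 5. With the numbers crossed, an alternative chosen after seeing the data, edgeR called 0 transcripts, with 797 at an unadjusted p below 0.05. Counting gave a coefficient of variation of at most 0.392%, which was under the variation within each group except for uc001vxa.1 in KD (0.244% between libraries, 0.306% from counting). The error of dividing reads among transcripts was not measured.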

Other observations

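Next below the 5 transcripts by mean TPM stood uc021wgv.1, of 180 nt, chosen here after its values were seen. It had 1216 to 3407 reads per library and ranked 1283 by mean share of reads, but 6 by mean TPM. Its effective length was 16.0 to 16.6 nt. Its TPM was 2604 in VC 1, 4868 in VC 2, 5137 in KD 1 and 6415 in KD 2. uc011mpt.1, also of 180 nt, ranked 8 by mean TPM and 1943 by mean share of reads.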
